A study of Mus musculus with 8 samples.

Results

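The enzymes that make, lengthen and desaturate fatty acids were followed on 8 Affymetrix mouse arrays of 4 immortalized hematopoietic lines. The 10 genes are Acly, Acaca, Fasn, Scd1, Scd2, Elovl1, Elovl5, Elovl6, Fads1 and Fads2, of 12393 genes with a probe set of their own. Every probe set whose sole gene symbol was one of these was taken, 22 of the 22626 tested, and no member lacked one. For each gene the probe set with the highest mean level over all arrays is described first and is called its brightest probe set. The 4 PICALM-rescued arrays are from Picalm-knockout cells that received a human PICALM cDNA in the MSCVneo retrovirus, and the 4 Picalm-knockout arrays are from the same lines with the empty MSCVneo vector. Each of the lines PICALM6A, PICALM6B, PICALM6D and PICALM84, here 6A, 6B, 6D and 84, gave 1 array of each kind. All lines derive from day 14 fetal liver of embryos carrying the fit1 and fit1-5R alleles of Picalm, with B6(Cg)-TyrC-2J/J as the background strain, and all carry MLL-ENL, an oncogenic fusion delivered by retrovirus that keeps progenitors dividing. All were grown with 5 ng/ml interleukin-3 and 50 ng/ml stem cell factor. The rescue is expression from a viral promoter, which need not match the native amount, and no unmodified wild-type cells were on these arrays. Picalm itself was not analysed here, so its level is no check of the labels.

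PICALM is an adaptor that brings cargo into clathrin-coated vesicles, and the study asked how gene expression depends on it. Cytosolic acetyl-CoA, split from citrate, is carboxylated to malonyl-CoA, from which fatty acid synthase builds palmitate. Elongases in the endoplasmic reticulum lengthen fatty acids, while desaturases place double bonds. Many of these genes are known targets of the transcription factor SREBP1 and of the oxysterol receptor LXR, and dividing blood progenitors use their products for membranes.

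No probe set of these enzymes passed the threshold when rescued cells were set against knockout cells. Values are log2 levels, so that a difference of 1 is a doubling, and a difference is rescued minus knockout within a line, averaged over 4 lines. The limma test with the line as a block, at the false discovery rate the methods name (about 12%), called 0 of 22 member probe sets, where it called 0.0796% of all probe sets (18, of which 1 was higher and 17 were lower in rescued cells). At an unadjusted p under 0.05, 5 of 22 were higher and 0 lower, against 6.17% of all probe sets that were higher. In all 4 lines 7 of 22 were higher and 0 lower, where 12.0% of all probe sets were higher (2705 of 22626) and 2677 were lower. In 5 of 22, every rescued array lay above every knockout array, as did 1.88% of all. Several probe sets of a gene are repeated measures of it. Those at the unadjusted threshold were of Elovl1, Elovl5 and Scd1, and those higher in all 4 lines of these genes and Fasn. Those with no overlap were of Elovl1, Elovl5 and Fasn. By brightest probe set, 2 of 10 genes were higher at the unadjusted threshold, 3 of 10 in all 4 lines and 3 of 10 with no overlap. Over the brightest probe sets, 9 of 10 mean differences were above 0, with a median of 0.094, beside a median of 0.0027 over all probe sets. In bulk RNA, fewer cells of a type and less RNA per cell cannot be told apart.

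Scd1 had the largest mean difference of the 10 genes, and it came mainly from lines 84 and 6A. Stearoyl-CoA desaturase 1 places the first double bond in saturated fatty acids and makes oleate. Its brightest probe set, 1415964_at, was at 7.70, 8.18, 8.04 and 9.53 in rescued cells of lines 6A, 6B, 6D and 84, against 6.96, 8.20, 7.92 and 7.43 in knockout cells (the order of lines in every list below). The rescued array of line 84 lay above all the others, line 6B had nearly the same level with and without rescue, and the groups overlapped. The differences were 0.73, -0.03, 0.12 and 2.10, the last of which is a 4.28-fold difference and rank 46 of all probe sets in line 84. The mean difference was 0.73 (95% confidence interval -0.15 to 1.61, limma, adjusted p = 0.455). Without line 84 it was 0.28. The other Scd1 probe set, 1415965_at, was at 6.86, 7.27, 7.36 and 8.0 in rescued cells and at 6.08, 7.14, 7.28 and 6.69 in knockout cells. Here the rescued array was higher in all 4 lines, again by most in lines 84 (1.32) and 6A (0.78), with a mean of 0.58 (0.04 to 1.12, adjusted p = 0.377). The spread between lines was as large as the effect, with an SD of the line differences of 0.97 and 0.58 for the probe sets 1415964_at and 1415965_at.

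Scd2, the desaturase of the same reaction that predominates in mouse brain, showed no common direction. Its brightest probe set, 1415822_at, was at 12.89, 12.89, 12.98 and 13.20 in rescued cells and at 13.08, 13.03, 13.03 and 12.89 in knockout cells. Rescued cells were lower in lines 6A, 6B and 6D and higher in line 84, and the mean difference was -0.019 (-0.25 to 0.21, adjusted p = 0.943). In 1415823_at the differences were -0.41, -0.39, 0.04 and 0.61, below 0 in lines 6A and 6B and above 0 in lines 6D and 84. In 1415824_at lines 6A, 6B and 6D differed by 0.0082, -0.056 and -0.081, while line 84 differed by 0.89. All 3 probe sets of Scd2 therefore had their highest difference in line 84, as both of Scd1 did. The genes are near neighbours in the mouse genome, with 1 protein-coding gene between them, Scd4.

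**Figure D1:**
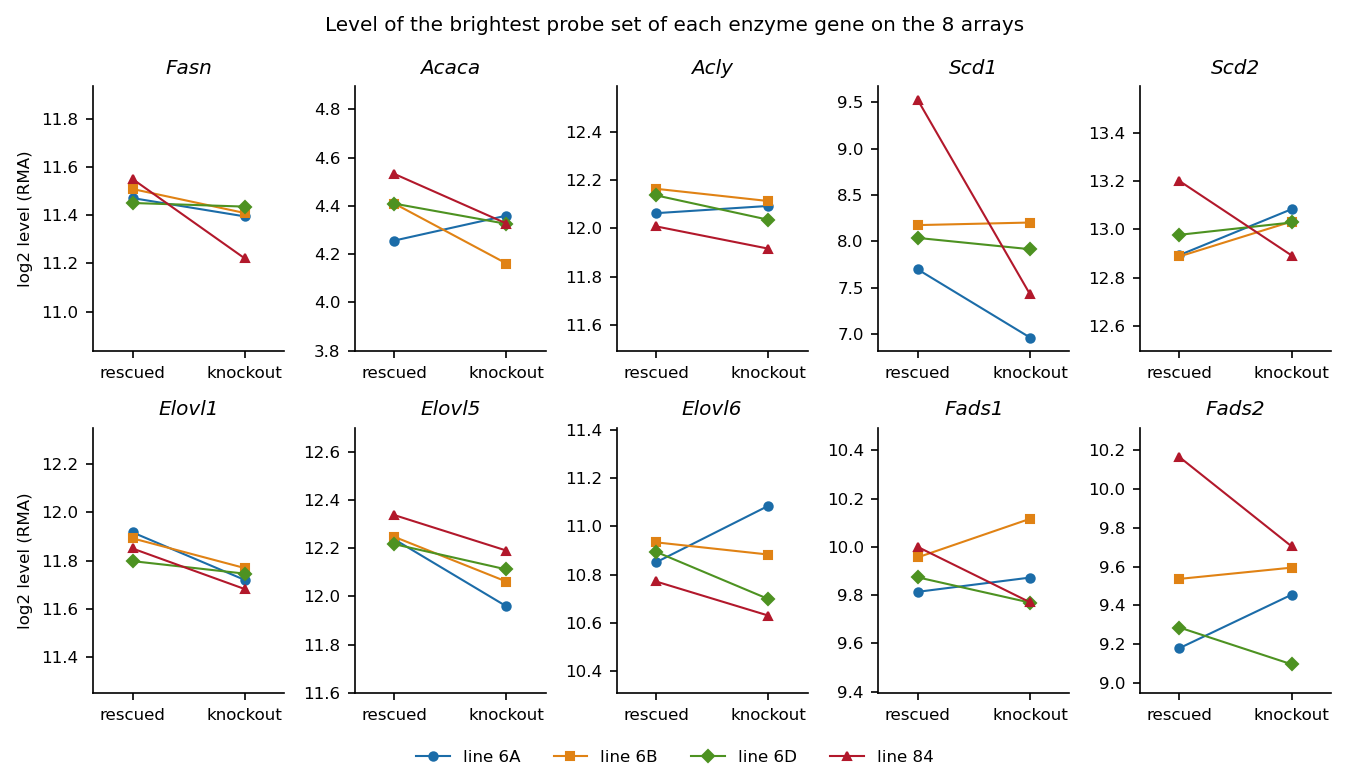
Log2 level of the brightest probe set of each gene (vertical axis, with its own range in each panel) in rescued cells at the left and knockout cells at the right, with a line joining the arrays of each cell line. Elovl1, Elovl5 and Fasn slope the same way in all 4 lines, and in Scd1 the rescued array of line 84, at 9.53, lies above the other 7 arrays.

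Elovl5 and Elovl1 were higher with rescue in all 4 lines in each of their probe sets, by 0.042 to 0.28. Elovl5 lengthens polyunsaturated fatty acids after their first desaturation. Its brightest probe set, 1437211_x_at, was at 12.24, 12.25, 12.22 and 12.34 in rescued cells and at 11.96, 12.06, 12.11 and 12.19 in knockout cells. Every rescued array lay above every knockout array, with differences of 0.28, 0.19, 0.11 and 0.15. The mean of 0.18 is a 1.13-fold difference (0.061 to 0.30, adjusted p = 0.323). The suffix x marks a probe set with probes that also match other transcripts, and 1415840_at, which has no such mark, was at 11.47, 11.48, 11.51 and 11.63 in rescued cells and 11.33, 11.30, 11.38 and 11.43 in knockout cells. These groups did not overlap either, and the mean of 0.16 (0.062 to 0.27) varied over the lines by an SD of 0.034, with the lowest adjusted p of the 22 probe sets, 0.318.

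Elovl1 makes very long saturated and monounsaturated fatty acids, which are used in sphingolipids. Its probe set 1456530_x_at was at 11.92, 11.89, 11.80 and 11.85 in rescued cells and at 11.72, 11.77, 11.75 and 11.68 in knockout cells. The groups did not overlap, although the lowest rescued and the highest knockout array differed by little, and the mean difference was 0.14 (0.022 to 0.25, adjusted p = 0.355). A further probe set with the same mark, 1455994_x_at, had differences of 0.12, 0.083, 0.058 and 0.17. In 1425676_a_at, whose suffix marks several transcripts of the gene, they were 0.14, 0.20, 0.078 and 0.042, and here the rescued array of line 84 (11.06) lay within the range of the knockout arrays (11.01 to 11.13). All 3 Elovl1 and both Elovl5 probe sets were thus higher in every line, and none passed the threshold.

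Elovl6 elongates palmitate to stearate, the substrate of Scd1. Its brightest probe set, 1417404_at, was at 10.85, 10.93, 10.89 and 10.77 in rescued cells and at 11.09, 10.88, 10.70 and 10.63 in knockout cells. Line 6A was lower with rescue and the other lines were higher, with a mean difference of 0.038 (-0.16 to 0.24, adjusted p = 0.865). The probe set 1417403_at had the same signs in each line, at -0.14, 0.066, 0.18 and 0.26.

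Of the enzymes from citrate to palmitate, Fasn was higher with rescue in every line, by small amounts. Fasn encodes fatty acid synthase, the multidomain enzyme that assembles palmitate. Its probe set 1423828_at was at 11.47, 11.51, 11.45 and 11.55 in rescued cells and at 11.40, 11.41, 11.44 and 11.22 in knockout cells. The groups did not overlap, but line 6D differed by 0.015 and line 84 by 0.33, and the mean of 0.13 (-0.028 to 0.29, adjusted p = 0.459) was 0.064 without line 84.

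Acly encodes ATP citrate lyase, the source of cytosolic acetyl-CoA. Its brightest probe set, 1451666_at, was at 12.06, 12.16, 12.14 and 12.01 in rescued cells and at 12.09, 12.11, 12.04 and 11.92 in knockout cells, a mean difference of 0.054 (-0.058 to 0.17, adjusted p = 0.638) with overlapping groups. The other 4 Acly probe sets had mean differences of -0.011 to 0.082, and 2 of them, 1438389_x_at and 1439445_x_at, were among the dimmest 40% of all probe sets. Acaca, which encodes acetyl-CoA carboxylase, the committed step of synthesis, had a single and also dim probe set, 1427595_at, at 4.26, 4.41, 4.41 and 4.53 in rescued cells and 4.36, 4.16, 4.33 and 4.33 in knockout cells. Line 6A was lower and the other lines higher with rescue (mean 0.11, -0.064 to 0.28, adjusted p = 0.547), and at this brightness little can be read from it.

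Fads2 and Fads1, the desaturases of polyunsaturated fatty acids, differed in sign between lines. Fads2 acts first in that pathway. Its probe set 1419031_at was at 9.18, 9.54, 9.29 and 10.16 in rescued cells and at 9.46, 9.59, 9.10 and 9.70 in knockout cells. Lines 6A and 6B were lower and lines 6D and 84 higher with rescue, and the mean difference was 0.079 (-0.22 to 0.38, adjusted p = 0.813). In 1449325_at the levels were 8.18, 8.58, 8.25 and 9.48 in rescued cells and 8.43, 8.58, 8.02 and 8.91 in knockout cells. In both Fads2 probe sets line 84 was above the other lines, with and without rescue. Fads1, which acts after elongation of the Fads2 product, was at 9.81, 9.96, 9.87 and 10.00 in rescued cells and at 9.87, 10.12, 9.77 and 9.77 in knockout cells. The direction in each line was that of Fads2 1419031_at, with a mean of 0.029 (-0.16 to 0.21, adjusted p = 0.891). Fads1 and Fads2 lie next to each other, with 0 protein-coding genes between them. The means of both were below 0 without line 84, at -0.038 for Fads1 and -0.048 for Fads2.

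**Figure D2:**
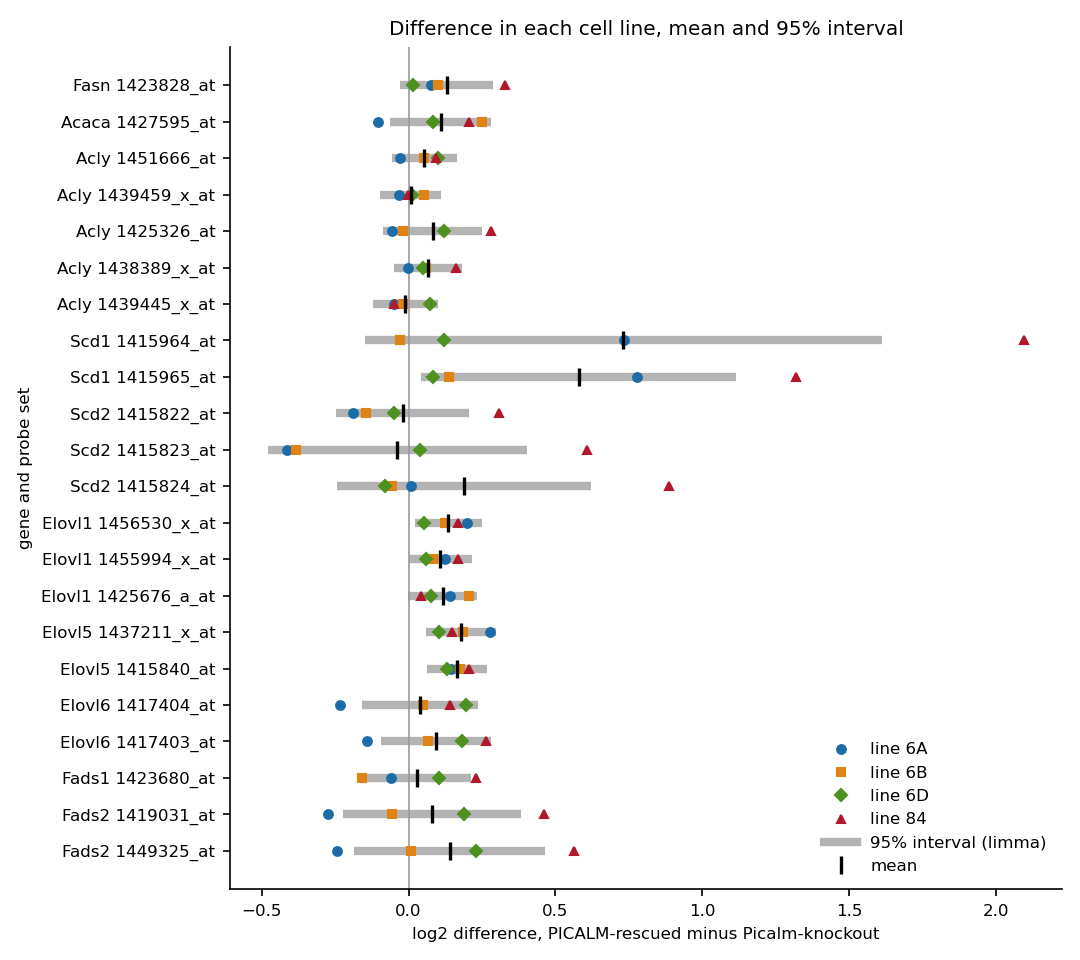
Difference between rescued and knockout cells on the log2 scale (horizontal axis) for all 22 probe sets, with a symbol for each cell line, a black bar for the mean and a grey bar for its 95% interval from limma. The 5 probe sets of Elovl1 and Elovl5 have all symbols to the right of 0, and Scd1 1415964_at reaches 2.10 in line 84.

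The bases just before the annotated start are shown for Fasn, Elovl1 and Elovl5, the genes whose brightest probe set was higher in all 4 lines with no overlap. The sequences are from RefSeq (build GRCm38.p6), 250 bases on the strand of the gene, with the letters CCAAT, the core of the site of the factor NF-Y, and CACGTG, an E-box, in capitals on either strand (ATTGG is CCAAT on the other strand).
Fasn, chr11:120824548-120824797, minus strand: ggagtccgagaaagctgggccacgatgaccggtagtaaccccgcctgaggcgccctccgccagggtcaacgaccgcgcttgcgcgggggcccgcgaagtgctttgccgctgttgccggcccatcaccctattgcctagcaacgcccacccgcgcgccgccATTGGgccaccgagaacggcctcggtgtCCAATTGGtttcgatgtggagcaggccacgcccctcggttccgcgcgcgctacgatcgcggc
Elovl1, chr4:118427843-118428092, plus strand: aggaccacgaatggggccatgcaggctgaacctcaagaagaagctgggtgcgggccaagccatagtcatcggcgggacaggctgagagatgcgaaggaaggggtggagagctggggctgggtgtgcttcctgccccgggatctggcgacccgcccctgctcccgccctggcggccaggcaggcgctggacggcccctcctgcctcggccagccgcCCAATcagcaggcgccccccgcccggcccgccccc
Elovl5, chr9:77917115-77917364, plus strand: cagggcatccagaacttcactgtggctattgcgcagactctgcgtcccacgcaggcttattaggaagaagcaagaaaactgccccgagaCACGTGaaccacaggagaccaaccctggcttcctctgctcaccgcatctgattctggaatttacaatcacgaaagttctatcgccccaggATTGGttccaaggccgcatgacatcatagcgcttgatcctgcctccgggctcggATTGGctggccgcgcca
All 3 windows held CCAAT, which began, as printed, 90, 62 and 59 bases before the start in Fasn (the last pair overlap), 35 in Elovl1 and 71 and 17 in Elovl5. The Elovl5 window also held CACGTG at 161 bases. Over all 32851 mouse windows of this length, 33.8% held CCAAT and 6.02% held CACGTG. In all, 8 windows of 7 members were searched on both strands, including a second start of Elovl1. CCAAT was in none of the windows of Acaca, Acly, Elovl6 and Fads2 or in the second window of Elovl1. The GC box GGGCGG, in 32.7% of all windows, occurred 5 times in the Elovl1 window shown, where 1 of them overlaps CCAAT, 2 times in the other Elovl1 window, 4 times in that of Acly and 1 time in that of Fads2. The sterol regulatory element TCACNCCAC, with N for any base, was in 1.05% of all windows and in 0 of the 8. These are letters found in a window, not measured binding. The 3 genes shown were picked by their values on these arrays, and a link between CCAAT and the differences was not tested. No window was used for Scd1, Scd2 and Fads1.

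The lines differed in how many of these genes were higher with rescue. In line 84 all 10 brightest probe sets were higher, with a median difference of 0.22. In line 6D 9 of 10 were higher (median 0.10), in line 6B 6 of 10 (0.051) and in line 6A 4 of 10 (-0.044). Over all probe sets, 46.9% were higher in line 84, 49% in line 6D, 49.9% in line 6B and 52.3% in line 6A. Line 84 had the wider spread over all probe sets too, with an SD of 0.35, beside 0.22, 0.18 and 0.15 in lines 6A, 6B and 6D. Its rescued array was the highest of the rescued arrays for 13 of 22 member probe sets (36.7% of all probe sets), and its knockout array the lowest of the knockout arrays for 12 of 22 (33.5% of all). With 1 array per line and condition, a difference between lines in the effect of rescue could not be tested.

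Markers of maturing blood cells had differences that varied with the line and the list. Over all 22626 probe sets, 2705 were higher and 2677 lower in all 4 lines. The neutrophil list held 10 genes, those of granule proteins together with S100a8, S100a9 and the receptor gene Cxcr2. All 10 were measured, and 2 were dim, Mmp9 and Cxcr2. With rescue 6 were higher in all 4 lines, S100a8 and S100a9 among them, and 0 lower. The median difference was 1.53, with medians of 1.68, 0.54, 0.38 and 2.61 in lines 6A, 6B, 6D and 84. The mean level of this list was 9.92 to 11.18 on the rescued arrays and 8.10 to 9.53 on the knockout arrays, and Camp, an antimicrobial peptide gene of these granules, was at 12.45, 9.25, 10.03 and 9.59 in rescued cells and at 8.22, 8.08, 8.87 and 6.85 in knockout cells. Of 8 mast cell and basophil genes 7 were measured, 4 higher and 1 lower in all 4 lines, with medians of 0.49, 0.13, 0.12 and 1.67. Of the 7, 4 were among the dimmest 40% of probe sets. The dim genes include Ms4a2 and Tpsb2, counted as higher, and Tpsab1, the 1 lower. This list averaged 6.0 to 8.83 on the rescued arrays and 5.74 to 7.34 on the knockout arrays, and line 84 was the highest in both groups. Cpa3, a mast cell protease, differed by 3.29, 0.55, 2.29 and 1.54, and Hdc, the enzyme that makes histamine, by -0.049, 0.67, 1.03 and 2.70, so that the line with the largest difference was not the same for both. Of 7 monocyte and macrophage genes 5 were measured, 2 higher and 1 lower in all 4 lines, with medians of 0.057, 0.12, 0.29 and 0.57, the lowest in line 6A. All 5 azurophil granule genes were measured, 3 higher and 0 lower in all 4 lines, with medians of 0.15, 0.086, 0.057 and 0.38. Line 84 had the highest median in all 4 of these lists, as it had the largest Scd1 difference, while line 6A was second in 3 of them and last in the monocyte list. In the erythroid and megakaryocyte, lymphoid and fat cell lists line 84 instead had the lowest median, at -0.21, -0.063 and -0.20. Of the lymphoid genes 4 of 5 were dim. In the progenitor, hepatocyte, fibroblast and proliferation lists it was neither highest nor lowest. None of these marker genes passed the threshold, and their part in the differences of Scd1 and the other enzymes was not tested. Of 8 progenitor genes of the labelled cell type all 8 were measured, and 0 were among the dimmest 40% of probe sets. In all 4 lines 2 of them were higher and 1 lower with rescue. The mean difference was above 0 for 3 of the 8 and below 0 for 5, with a median of -0.098. Ptprc, a pan-leukocyte gene, was at 12.31 to 12.54 in rescued and 12.22 to 12.49 in knockout cells, and was higher with rescue in all 4 lines, as was Spi1, a myeloid transcription factor (mean difference 0.23, adjusted p = 0.318). The progenitor surface gene Cd34 was the 1 lower in all 4 lines, at 8.93, 9.38, 9.64 and 11.09 in rescued cells and 10.85, 11.01, 10.15 and 12.03 in knockout cells (adjusted p = 0.261). The receptor gene Kit was lower in every line but 6A (0.011), with a mean difference of -0.26 (adjusted p = 0.347). Flt3, also a receptor gene, was lower in every line but 6D (0.15), with a mean of -0.61 (adjusted p = 0.427). Of 6 measured hepatocyte genes 3 were dim, Alb among them, and 1 was higher and 1 lower in all 4 lines (median difference 0.077). Of those that were not dim, Ttr was higher in all 4 lines (mean difference 0.079), Apoa1 was higher in 3 of 4 (0.22) and Afp was lower in all 4 (-1.25). Of 4 measured fat cell genes 3 were dim, Adipoq among them. Fabp4 was not dim, at 9.20, 7.89, 8.41 and 6.93 in rescued cells and at 8.96, 8.32, 8.34 and 7.57 in knockout cells.

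No enzyme passed a test of its level between the lines, with both arrays of a line as its replicates. A limma F-test of the 4 lines, with rescue as a covariate and a threshold of 0.05, called 0 of 22 member probe sets, where it called 10.8% of all. The closest was Fads2 1449325_at (adjusted p = 0.0544), whose line means were 8.31, 8.58, 8.14 and 9.20, and which 4 alternative settings called. Next was Fads2 1419031_at (adjusted p = 0.108), with means of 9.32, 9.57, 9.19 and 9.93. Elovl6 1417403_at had its lowest mean, 9.40, in line 84 and 9.64 to 9.80 in the other lines (adjusted p = 0.134).

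Genes of the neighbouring steps of fatty acid metabolism lay on both sides of 0. As background for the counts of these and the following lists, 2705 of all 22626 probe sets were higher and 2677 lower in all 4 lines. Of the genes that supply acetyl-CoA and NADPH, 10 of 12 were measured, 2 higher and 1 lower in all 4 lines, with a median difference of -0.014 beside 0.094 for the 10 enzymes. Pgd, which makes NADPH in the pentose phosphate pathway, was at 12.81, 12.84, 12.92 and 12.53 in rescued cells and at 12.68, 12.61, 12.79 and 12.06 in knockout cells (mean difference 0.24, adjusted p = 0.334). Acss2, which makes acetyl-CoA from acetate, differed by 0.19 (adjusted p = 0.353), with line 84 above the other lines in both groups. Mdh1, the 1 lower in all 4 lines, and Me1, which was dim, differed by -0.072 and -0.098 (adjusted p = 0.532 and 0.520, limma). Of the other genes of fatty acid synthesis 9 of 10 were measured, 2 higher and 0 lower in all lines. Among them Aacs, which makes acetoacetyl-CoA for lipid synthesis, differed by 0.27 (adjusted p = 0.383), and Mcat, the mitochondrial malonyl transferase, by -0.13 (adjusted p = 0.412).

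Of the other elongation genes, 10 of 11 were measured, 1 higher and 1 lower in all lines (median 0.017). Elovl7, an elongase of saturated fatty acids, was the lower, at 9.69, 9.57, 9.57 and 9.17 in rescued cells and 9.95, 9.71, 9.61 and 9.39 in knockout cells (adjusted p = 0.346). Of the other desaturases and their electron carriers, 9 of 11 were measured, 3 higher and 1 lower in all lines (median 0.082). Cyb5r4 and Cyb5b, which carry electrons in the cytochrome b5 system, differed by 0.14 and 0.11, while Fads3, a relative of Fads1 and Fads2, was at 6.33, 6.31, 6.35 and 6.38 in rescued cells and at 6.84, 6.71, 6.17 and 7.41 in knockout cells (adjusted p = 0.414). Acyl-CoA synthetase and fatty acid binding genes had 11 of 13 measured, 0 higher and 1 lower in all lines (median -0.086), the one being the acyl-CoA thioesterase Acot1, which differed by -0.98, -0.45, -0.038 and -0.083.

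The regulators also lay on both sides of 0. Of 19 genes of the SREBP, LXR and ChREBP systems 14 were measured, 2 higher and 3 lower in all lines, with a median of -0.022. Srebf2, the SREBP of cholesterol synthesis, was at 9.64, 9.64, 9.64 and 9.84 in rescued cells and at 9.53, 9.55, 9.47 and 9.69 in knockout cells (mean difference 0.13, adjusted p = 0.347). Mlx, the partner of ChREBP, differed by 0.27 (adjusted p = 0.359), and Mbtps1, a protease that activates SREBPs, by -0.13 (adjusted p = 0.351). Srebf1, named after its values were seen, was at 10.39, 10.51, 10.39 and 10.64 in rescued cells and at 10.57, 10.66, 10.46 and 10.29 in knockout cells, lower in 3 lines and higher in line 84. Of 22 beta-oxidation genes 20 were measured, 2 higher and 5 lower in all lines (median -0.036). Of all 22626 probe sets, 2705 were higher and 2677 lower in all lines. Decr1, an enzyme that breaks down unsaturated fatty acids, was at 9.44, 9.43, 9.47 and 8.79 in rescued cells and at 9.58, 9.66, 9.65 and 9.28 in knockout cells (mean difference -0.26, adjusted p = 0.323). No gene of any of these lists passed the threshold.

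Cholesterol biosynthesis, which shares acetyl-CoA and SREBP control with these enzymes, is given for comparison. The study picked this pathway out from these same arrays, so its counts here are not independent of that choice. Of its 20 genes 17 were measured, and all 17 were higher in all 4 lines, 15 of them at an unadjusted p under 0.05, with a median of 0.31 and medians of 0.24, 0.20, 0.15 and 0.62 in lines 6A, 6B, 6D and 84. The corresponding counts were 3 of 10 and 2 of 10 for the fatty acid enzymes, with line medians of -0.044, 0.051, 0.10 and 0.22. Of all probe sets, 12.0% were higher in all 4 lines and 6.17% were higher at an unadjusted p under 0.05. No gene of either list passed the threshold, and the lowest adjusted p of the cholesterol genes was 0.249 (limma, Mvk). Both lists had their highest median in line 84. They come from the same arrays, and the difference between the lists was not tested.

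**Figure D3:**
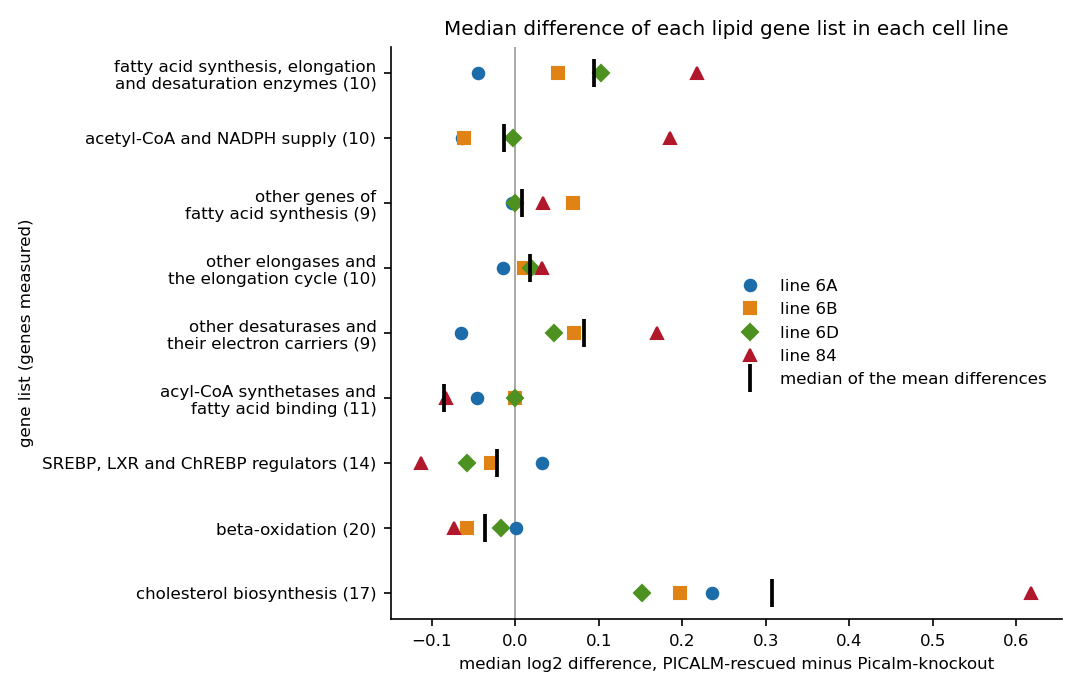
Median log2 difference between rescued and knockout cells (horizontal axis) over the measured genes of each list, with a symbol for each cell line and a black bar for the median of the mean differences. The fatty acid enzymes run from -0.044 in line 6A to 0.22 in line 84, and cholesterol biosynthesis lies above 0 in every line.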

How the data were processed

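RNA from 8 cultures was extracted with Qiagen kits, amplified and hybridized to Affymetrix mouse arrays (the labels give the A version of the array, which the table fits, and the methods the full one). The authors deposited log2 values normalized by RMA, which were used as given, and the array medians were 7.32 to 7.35. The table held 22690 probe sets, 64 of them controls that were not tested. The platform's annotation gave 1 symbol to 20380 of the tested probe sets, several to 691 and none to 1555, and 20351 gene IDs were found in a current gene table, which changed 0 symbols. Arrays count no molecules, and precision rests on the number of arrays.

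Rescued and knockout arrays were compared with lmFit and eBayes (limma 3.58.1, R 4.3.3), two-sided, with cell line as a block and Benjamini-Hochberg adjustment over the whole table. The methods name SAM and the threshold, but no pairing. Pairing was by the shared cell line, and paired arrays deviated together from their group means (correlations of 0.623 to 0.811). No source says that the lines are from separate embryos. The p-values of the rescue comparison set a mean difference against how the rescued-minus-knockout difference varied between lines. Those of the comparison of lines set the levels of the lines against that same variation. With 4 pairs an exact sign-change test cannot go below p = 0.125. The tests were run first on simulated data.

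The members, lists and tests were chosen with earlier results of these data known. All member probe sets are given, with up to 4 genes of each other pathway list, those with the smallest p. Some genes of marker lists that a result touches are also given. Alternatives were a fit without the block, SAM, the methods' t-test, quantile and median scaling, a filter on dim probe sets, a variance trend with robust settings, a stricter FDR, averaging a gene's probe sets, and leaving out arrays or lines.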

Additional observations from a re-analysis of the deposited data

Results flagged for a closer look

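Among the 44 groups of 4 arrays of the member probe sets, 3 held an array far from the other arrays of its group, judged by its gap over the group's range, which chance gives in about 1 in 20 groups. A count of 3 in 44 is near that rate. All 3 arrays were of line 84, which was often extreme over all probe sets too. Its rescued array was the highest rescued array in 36.7% and the lowest in 33.5%, and its knockout array the lowest knockout array in 33.5%. In Scd2 1415824_at the rescued array of line 84 was the highest rescued array at 8.47, with the others at 7.83 to 7.87. In the same probe set the knockout array of line 84 was the lowest knockout array at 7.59, with the others at 7.86 to 7.91. In Elovl1 1425676_a_at the rescued array of line 84 was the lowest rescued array at 11.06, with the others at 11.21 to 11.22. Differences between lines in the effect of rescue were not tested.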

How the results depend on the processing

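The main test called 18 of all probe sets and 0 of the 22 member probe sets. With no replicate block, so that the lines were not paired, it called 0 of all. SAM called 635 with lines paired (140 higher, 495 lower) and 61 with no replicate block (22 higher, 39 lower). The methods' t-test called 1179 at its unadjusted threshold (617 higher, 562 lower) and 0 after Benjamini-Hochberg adjustment. A variance trend with robust settings called 100 (19 higher, 81 lower), and an FDR of 0.05 called 4. Leaving out single lines or arrays gave 0 to 50, with 50 without line 84 and 0 without any other line. Of the member probe sets, paired SAM called 1 (Elovl5 1415840_at) and the methods' t-test 5 (3 of Elovl1, 2 of Elovl5), and every other setting 0. Member probe sets higher in every line numbered 7 to 13 when a line was left out, with 13 without line 6A. The line comparison called 2440, against 3740 with the variance trend and robust settings and 58 without line 84, 1491 without 6A, 1340 without 6B and 1411 without 6D. There 1 member probe set, Fads2 1449325_at, was called under quantile normalization, without the dimmest 40%, with the variance trend and robust settings and without line 6A, so leaving out lines gave 0 to 1. The sign of a mean difference turned for Scd2 without line 6A (0.038) and without line 6B (0.022), over a range of -0.13 to 0.038, and with the mean over its probe sets (0.044). It also turned for Elovl6 without line 6D (-0.014, range to 0.13), Fads1 without line 84 (-0.038, range to 0.092) and Fads2 without line 84 (-0.048, range to 0.20). The cause was not tested. The other 84 values of single genes kept their direction and side of the threshold. The median of the 10 genes was 0.052 to 0.14 with a line left out. Using a probe set without x in its suffix, a choice made after seeing the data, moved no call, with mean differences of 0.12 for Elovl1 and 0.16 for Elovl5. The brightness of the Acaca probe set limits what its values show.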
